A study of Mus musculus with 2 samples.

Results

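Mir744, Mir652, Mir22, Mir140 and Mir185 are 5 of the 2202 microRNA genes counted in the left cerebral cortex of newborn mice. They were selected on the same counts described here, as microRNAs with many reads, a single locus and a host transcript, so that genes with alike values in both animals stood beside genes whose values differed. Their levels and their ratios between animals are therefore a description and carry no test. All animals were female B6CASTF1/J mice, a hybrid strain of C57BL/6 and CAST parents from The Jackson Laboratory, at an age of 4 days and with no treatment named in the labels. The data form 1 group of 2 libraries, made from RNA below 30 bases, of animals with separate numbers that share a donor record. They are called replicate 1 and replicate 2. Tissue was taken whole, so a lower value from fewer cells of a type and one from less RNA per cell cannot be told apart.

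A microRNA is cut from a hairpin in a longer transcript, first by Drosha in the nucleus and then by Dicer in the cytoplasm, and one arm of the hairpin usually guides an Argonaute protein to messenger RNAs that pair with its seed. Many microRNAs lie in introns of protein-coding genes and are made from the host's transcript. Others come from exons of noncoding host RNAs. Mir140 is best known from cartilage, Mir22 from heart and muscle, and Mir185 from the mouse counterpart of the chromosome region lost in DiGeorge syndrome.

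The counts cover the whole hairpin and thus add up both arms. The hairpins below show what was counted for the genes with both mature arms in the RefSeq table (GRCm38.p6), with those arms in capitals.
Mir744 hairpin: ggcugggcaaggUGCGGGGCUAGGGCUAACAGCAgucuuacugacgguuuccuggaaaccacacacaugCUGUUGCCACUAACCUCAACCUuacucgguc
Mir652 hairpin: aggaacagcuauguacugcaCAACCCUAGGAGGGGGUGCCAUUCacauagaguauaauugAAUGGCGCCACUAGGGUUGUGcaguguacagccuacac
Mir22 hairpin: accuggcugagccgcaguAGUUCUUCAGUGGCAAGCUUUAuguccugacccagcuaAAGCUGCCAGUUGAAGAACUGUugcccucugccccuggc

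All 5 genes matched a RefSeq entry, with 8 mature sequences among them. The mature sequences are printed with the seed, bases 2 to 8, in capitals, because the seed decides which microRNAs belong to a family.
mmu-miR-744-5p: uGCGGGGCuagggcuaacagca
mmu-miR-744-3p: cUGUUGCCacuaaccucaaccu
mmu-miR-652-5p: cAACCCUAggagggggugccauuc
mmu-miR-652-3p: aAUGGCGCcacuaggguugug
mmu-miR-22-5p: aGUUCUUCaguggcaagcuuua
mmu-miR-22-3p: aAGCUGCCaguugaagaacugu
mmu-miR-140-3p: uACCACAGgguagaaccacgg
mmu-miR-185-3p: aGGGGCUGgcuuuccucuggu
The 8 sequences are 21 to 24 bases long, and none of the 5 genes shares a printed seed with another of them. The mature sequences mmu-miR-140-5p and mmu-miR-185-5p were not used here.

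Among the 1738 mature sequences of the table, none outside these genes has the seed of either arm of Mir744, Mir652 or Mir22. The seed of mmu-miR-140-3p recurs in mmu-miR-497b, and that of mmu-miR-185-3p in mmu-miR-7048-5p. Mir497b had 0 counts in both libraries, and Mir7048 had 2 and 0. By these sequences the 5 genes had no counted relative with a shared seed at a level near their own. For Mir140 and Mir185 this covers the 3p arm only, and the seeds of their other arms were not compared.

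The hairpins were also distinct over their length. None of the 5 shares 22 bases with the hairpin of any other gene in the tables, on either strand. The longest stretch in common was 15 bases for Mir744 (with Mir1191) and for Mir185 (with Mir8118), 14 for Mir652 (with Mir1906-1 and Mir1906-2), 13 for Mir22 (with Mir6998) and 11 for Mir140 (with Gm25476, Mir3109 and Mir767). Each printed mature sequence occurs in a single hairpin, its own. Copies outside annotated hairpins were not searched.

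Each gene lies inside a longer gene on the same strand (mm10 coordinates, annotation M21). Mir744 (ENSMUSG00000076460.1, chr11:65734733-65734832, minus strand) lies in an intron of Map2k4, which encodes a MAP kinase kinase, in 5 of 5 overlapping transcripts. In transcript Map2k4-201 this is intron 3, and the hairpin starts 359 bases after the exon. Mir652 (ENSMUSG00000076011.1, chrX:142739000-142739097, plus strand) lies in an intron of Tmem164, a membrane protein gene, in all 7 overlapping transcripts, which is the second intron in Tmem164-201, 56050 bases after its start. Mir185 (ENSMUSG00000065464.2, chr16:18327401-18327465, minus strand) lies in an intron of Tango2 in all 10 overlapping transcripts, which is intron 1 of Tango2-201.

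Mir140 (ENSMUSG00000065439.1, chr8:107551244-107551313, plus strand) lies in intron 16 of Wwp2-201. Wwp2 encodes a ubiquitin ligase, and the hairpin is intronic in 3 overlapping transcripts and exonic in 1 that retains the intron. Mir22 (ENSMUSG00000065529.1, chr11:75463716-75463810, plus strand) was the only one of the 5 that is exonic in every overlapping transcript. It lies in exon 2 of both transcripts of the noncoding Mir22hg and in exon 2 of Tlcd2-203, a noncoding transcript of the neighbouring protein-coding gene. Mir744 and Mir22 share a chromosome but lie 9.73 Mb apart.

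Replicate 1 held 3555469 counts on the annotated strand of microRNA genes and replicate 2 held 2761003. CPM are counts scaled to a sum of 1000000 over those genes. All 5 genes had 0 reads on the opposite strand in both libraries, which allows up to 3, worth 0.844 CPM in the first library and 1.09 CPM in the second, so that counts on either strand equalled those on the annotated strand. Reads mapped to several places, which enter no gene, made up 45.8% and 41.0% of all reads. Reads amplified from 1 molecule are not independent, and every interval or limit given here accounts for counting error alone.

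The most abundant of the 5 was Mir744, with 90052 counts in replicate 1 and 65284 in replicate 2. This is 25328 and 23645 CPM, or 24486 ± 1189.9 CPM (SD, n = 2). It stood at rank 7 of 2202 genes in replicate 1 and rank 8 in replicate 2. Mir652 followed with 52599 and 47920 counts, 14794 and 17356 CPM, or 16075 ± 1812 CPM (SD, n = 2). Its rank was 15 and 16. Both genes thus held nearly the same place among all microRNAs in either animal, and their values did not overlap: the lower Mir744 value was above the higher Mir652 value.

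Mir22 had 35836 counts in replicate 1 and 7171 in replicate 2, or 10079 and 2597 CPM. Its mean was 6338 ± 5290.5 CPM (SD, n = 2), and its rank was 22 in replicate 1 and 68 in replicate 2. Mir140 had 15202 and 3661 counts, which is 4276 and 1326 CPM with a mean of 2801 ± 2086 CPM (SD, n = 2). Its rank was 48 and 96. Both genes were high in replicate 1 and low in replicate 2.

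Mir185 went the other way, with 487 counts in replicate 1 and 3455 in replicate 2, or 137 and 1251 CPM. Its mean was 694 ± 788 CPM (SD, n = 2), an SD larger than the mean. It ranked at 207 in replicate 1 and 100 in replicate 2. In replicate 1 it held 0.0137% of microRNA counts (95% Wilson interval 0.0125 to 0.0150) and in replicate 2 0.125% (0.121 to 0.129). The name of an abundant microRNA therefore fits it less well than the other 4, and least in replicate 1.

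**Figure D1:**
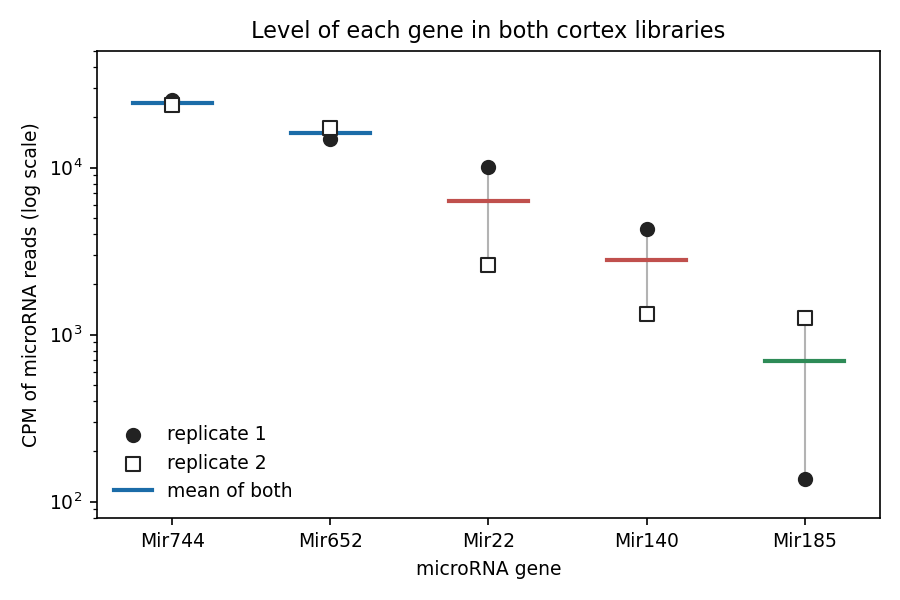
Level of the 5 genes in CPM of microRNA reads on a log axis, with filled circles for replicate 1, open squares for replicate 2 and a coloured bar at their mean. The symbols nearly coincide for Mir744 and Mir652, replicate 1 is higher for Mir22 and Mir140, and replicate 2 is higher for Mir185.

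In both libraries the order of the 5 genes was the same, Mir744, Mir652, Mir22, Mir140 and Mir185. Reads of the printed mature products have about the same length, so counts were not divided by length, though ligation can favour some sequences and a share of reads is not a share of molecules. The values of Mir652 and Mir22 did not overlap, at 14794 CPM for the lower Mir652 value and 10079 CPM for the higher Mir22 value, but this gap is below the SD of Mir22. The values of Mir22 and Mir140 overlapped. Those of Mir140 and Mir185 did not overlap, at 1326 CPM for the lower Mir140 value and 1251 CPM for the higher Mir185 value, but this gap is far below the SD of either gene.

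Together the 5 genes held 5.46% of microRNA counts in replicate 1 and 4.62% in replicate 2, or 5.04% ± 0.597 (SD, n = 2). Mir744 and Mir652 alone made up 4.01% and 4.10%. Mir22 and Mir140 made up 1.44% of replicate 1 and 0.392% of replicate 2. The summed share of the 5 genes thus varied with Mir22 and Mir140, while that of Mir744 and Mir652 was alike in both animals.

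Ratios are given as replicate 2 over replicate 1 on the log2 scale, after TMM scaling (a trimmed mean of log ratios that sets the libraries on a common scale). For Mir744 the log2 ratio was -0.12 (95% exact counting interval -0.13 to -0.10), a 1.08-fold difference. For Mir652 it was 0.21 (0.20 to 0.23), or 1.16-fold. Each interval lies to one side of 0, which at this depth shows only that the libraries differed by more than counting error.

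Mir22 had a log2 ratio of -1.97 (-2.01 to -1.94) and was 3.93-fold higher in replicate 1. Mir140 had -1.71 (-1.76 to -1.65) and was 3.26-fold higher there. Mir185 had 3.17 (3.04 to 3.31) and was 9.02-fold higher in replicate 2. With a single library per animal, the difference has no replicate check, and effects of the animal, the dissection and the library cannot be told apart.

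Across the 308 genes whose counts added up to 100 or more, the median log2 ratio was -0.09, the median distance from 0 was 0.33, and 210 genes (68.2%) were within 1.5-fold. In that set, 15.9% of genes were at least 2-fold apart in either direction, 11.0% with the higher value in replicate 1 and 4.87% with the higher value in replicate 2. Of the 5 genes, Mir22 and Mir140 passed 2-fold with replicate 1 higher, and Mir185 with replicate 2 higher. Since these ratios entered the selection, nothing is read from that count.

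**Figure D2:**
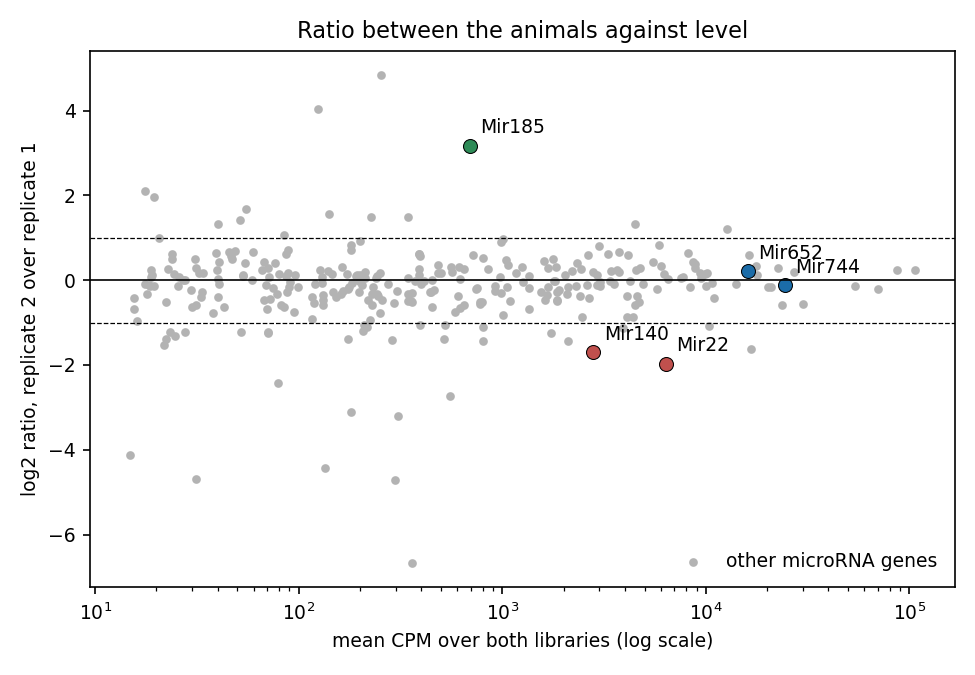
Log2 ratio of replicate 2 over replicate 1 against mean CPM on a log axis, for the 308 genes whose counts added up to 100 or more; dashed lines mark a 2-fold difference. Mir744 and Mir652 lie close to 0, Mir22 and Mir140 lie below the lower line among abundant genes, and Mir185 lies above the upper line.

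Of the 308 genes, 262 had a log2 ratio at least as far from 0 as that of Mir744, itself included. For Mir652 that number was 205, for Mir140 16, for Mir22 14 and for Mir185 9. Among the 107 genes with a mean of 1000 CPM or more, a minimum chosen after the values were seen, Mir22 had the ratio farthest from 0 and Mir140 the next. Mir744 was at place 91 and Mir652 at place 64 in that order. Since their ratios entered the selection, these places are a description too.

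Read numbers of 2 genes within a library can be set against each other with no scaling between libraries. For every 100 Mir744 reads, replicate 1 had 58.4 Mir652 reads (95% exact interval 57.8 to 59.0) and replicate 2 had 73.4 (72.5 to 74.3). Mir22 stood at 39.8 (39.3 to 40.3) in replicate 1 and at 11.0 (10.7 to 11.3) in replicate 2. Measured against Mir744, Mir22 was 3.62-fold apart between the animals and Mir652 1.26-fold.

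Mir140 had 16.9 reads per 100 of Mir744 (16.6 to 17.2) in replicate 1 and 5.61 (5.42 to 5.80) in replicate 2. Mir185 had 0.541 (0.494 to 0.591) and 5.29 (5.11 to 5.48). Mir140 and Mir185, 31.2-fold apart in replicate 1, were within 1.06-fold in replicate 2. The ratio of Mir185 to Mir22 moved most of the 10 pairs among the 5 genes, from 1.36 to 48.2 reads per 100 of Mir22, a 35.5-fold difference.

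Mir140 and Mir22 kept a similar ratio to each other. Replicate 1 had 42.4 Mir140 reads per 100 Mir22 reads (41.6 to 43.2) and replicate 2 had 51.1 (49.0 to 53.1), a 1.20-fold difference and the smallest of the 10 pairs. The ratio of Mir652 to Mir744 moved slightly more, 1.26-fold. By level, Mir744 and Mir652 were alike in both animals, Mir22 and Mir140 were lower in replicate 2 by similar factors, and Mir185 was higher there. Since the selection set alike genes beside differing ones, this grouping is a description and not a finding.

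**Figure D3:**
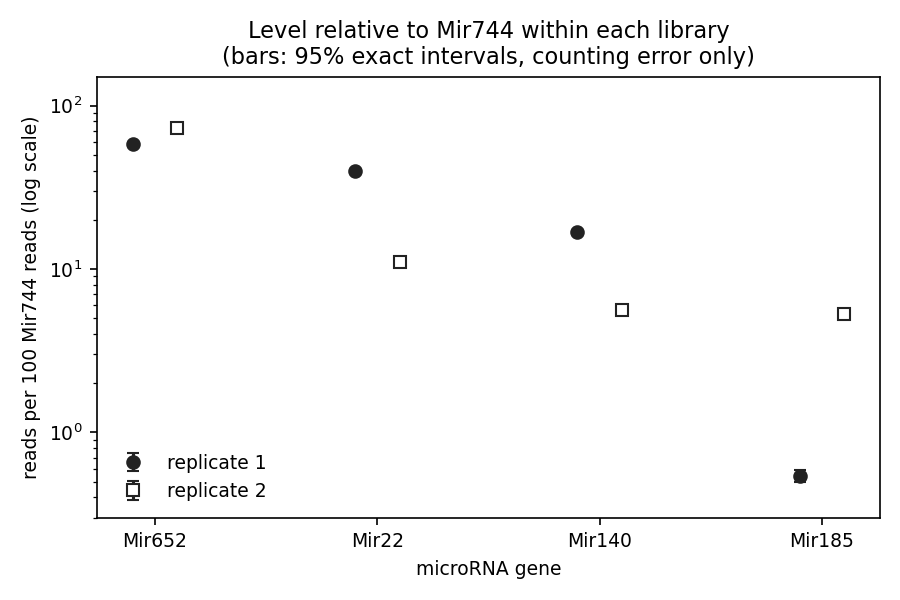
Reads per 100 Mir744 reads within each library on a log axis, with 95% exact intervals for counting error, filled circles for replicate 1 and open squares for replicate 2. Mir652 has 58.4 and 73.4, Mir22 and Mir140 are lower in replicate 2, and Mir185 has 0.541 in replicate 1 and 5.29 in replicate 2.

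The genes most like each of the 5 were found by the distance between pairs of log2(CPM + 1) values over the 2 libraries, which is likeness in these libraries only. Nearest to Mir744 were Mirlet7d, Mir127 and Mir149, at distances of 0.30, 0.32 and 0.33. Mirlet7d, a let-7 member, had 24984 and 29089 CPM. Nearest to Mir652 were Mir770, Mir382 and the endothelial Mir126a, at 0.20, 0.22 and 0.28, of which Mir126a shares 22 bases with another hairpin. Both stable genes thus had close company among the abundant microRNAs.

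Mir22 had no neighbour within 0.8, and its nearest genes were Mir128-2, Mir674 and Mir132 at distances of 0.89, 0.92 and 0.95. These had log2 ratios of -0.86, -1.13 and -0.88 and so were also higher in replicate 1, by less than Mir22. Mir128-2 shares 22 bases with another hairpin, and its count is uncertain. Nearest to Mir140 were Mir21a (0.52), Mir449a of ciliated cells (0.59) and Mir323 of the imprinted Dlk1-Dio3 cluster (0.88), with log2 ratios of -1.44, -0.87 and -1.24. Mir185 stood farthest from any other gene, with Mir301 at 1.35, Mir7-2 at 1.81 and Mir1981 at 1.81. Mir301 had 633 and 1408 counts, and the counting interval of its log2 ratio ran from 1.36 to 1.64.

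Of the same 308 genes, only Gm23935 and Mir451a had a log2 ratio above that of Mir185, at 4.04 and 4.83. Mir451a is the microRNA of red cells, with 60 and 1356 counts. Gm23935 had 50 and 652. Both share 22 bases with another hairpin, which Mir185 does not. A ratio as low as that of Mir22 or lower was found for 9 other genes. These were Mir200b, Mir429, Mir200a, Mir141 and Mir200c of epithelium, Mir183 and Mir182 of sensory organs, Mir1298 and Mir26a-2. The counts of these 9 genes in replicate 1 were 100 to 3401, all below the 35836 of Mir22. Mir26a-2 shares 22 bases with another hairpin, which makes its count less certain.

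None of the 5 genes has another microRNA gene with reads within 40 kb. The closest was beside Mir185, where Gm24572 lay 42.8 kb away with 1 and 0 counts. Mir22 had Mir132, a neuronal microRNA regulated by activity, 290 kb away on the same strand, at 5271 CPM in replicate 1 and 2903 CPM in replicate 2. On its other side Mir423, on the opposite strand at 1614 kb, had a log2 ratio of -0.47 (-0.52 to -0.42). Both were higher in replicate 1, as was Mir22, by smaller factors.

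Beside the others, the nearest genes with reads had few of them, except Mir3475, which lies 2428 kb from Mir652. Its log2 ratio of -0.12 (-0.29 to 0.04) spanned 0. The nearest genes of Mir744, Mir140 and Mir185 on either side had at most 30 counts in a library. Genes beyond the nearest on each side were not looked at.

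Other microRNAs of broad expression gave a frame for these values. Mir191 and Mir425, a neighbouring pair, had log2 ratios of -0.15 and 0.04. The 6 members of the Mir30 family that reached 100 counts in sum had ratios from -0.32 to 0.20, and the family stood at 18428 CPM in replicate 1 and 18377 CPM in replicate 2. Mir744, at -0.12, lay within that range and Mir652, at 0.21, just above it. Mir107 and Mir103-2, in introns of Pank genes, had 0.66 and 1.41. Shared stretches of 22 bases make the counts of all 3 listed Pank microRNAs, 4 of 7 Mir30 genes and Mir191 less certain. None of the 10 genes of these lists with that many counts was as far from 0 as Mir22, Mir140 or Mir185, a comparison without a test. The lists were chosen with earlier results of these data known and do not stand for all microRNAs of broad expression. Genes outside them were as far from 0, as given above.

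Markers of some other cell types differed between the animals too, while those of others differed little. Red cell markers had 60.2 CPM in sum in replicate 1 and 550 CPM in replicate 2, 9.01-fold higher there, the direction of Mir185. All 3 matched genes, Mir451a, Mir144 and Mir486, had reads in both libraries. Of these, 2 of 3 were at least 2-fold higher in replicate 2, against 4.87% of the 308 genes. Genes of a list were not shown to be independent of one another, so such a share carries no test. The sum rests mostly on Mir451a, with 1356 of the 1519 counts in replicate 2, while Mir486 had 131 and 84 counts and a log2 ratio of -0.29 (-0.71 to 0.11). Both Mir451a and Mir486 share 22 bases with another hairpin, which makes their counts less certain. Vessel markers had 16319 and 23815 CPM, with 0 of 3 past 2-fold and Mir145a the other way at -0.53. Microglia and leukocyte markers had 1104 and 1185 CPM, with 0 of 5 past 2-fold. Of these, Mir150 and Mir223 went the other way with log2 ratios of -0.30 and -0.96. Among the vessel, microglia and leukocyte markers, Mir126a and Mir142 have such shared stretches. The part of these cells in the Mir185 difference was not tested.

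In the direction of Mir22 and Mir140, epithelial markers had 2475 CPM in replicate 1 and 361 CPM in replicate 2. Of these, 6 of 6 genes that reached 100 counts were past 2-fold, against 11.0% of the 308 genes. They were not shown to be independent of one another, so this share carries no test. Mir205, with 49 and 24 counts, had a log2 ratio of -0.67 (-1.45 to 0.05). Choroid plexus and ciliated cell markers had 5228 and 2794 CPM, with 1 of 3 past 2-fold. Neuronal markers had 70610 and 50586 CPM, with 1 of 8 past 2-fold, a share near that background, and 2 of them, Mir138-1 and Mir138-2, went the other way with log2 ratios of 0.81 and 0.89. Oligodendrocyte markers had 913 and 613 CPM, with 0 of 3 past 2-fold and Mir219a-1 the other way at 0.66. All 3 of them share 22 bases with another hairpin, which makes their counts less certain. The part of these cells in the differences of Mir22 and Mir140 was not tested.

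Of the 6 striated muscle markers, 5 had 0 counts in both libraries, and Mir206 had 125 and 39. Of those 5, the copies of Mir1a and Mir133a have stretches of 22 bases in common with other hairpins, which makes a count of 0 uncertain. The liver marker Mir122 had 225 and 217 counts. All 11 neuronal markers had reads in both libraries, but 7 of them have such shared stretches, and the 3 copies of Mir124a had only 2 to 10 counts in a library.

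**Figure D4:**
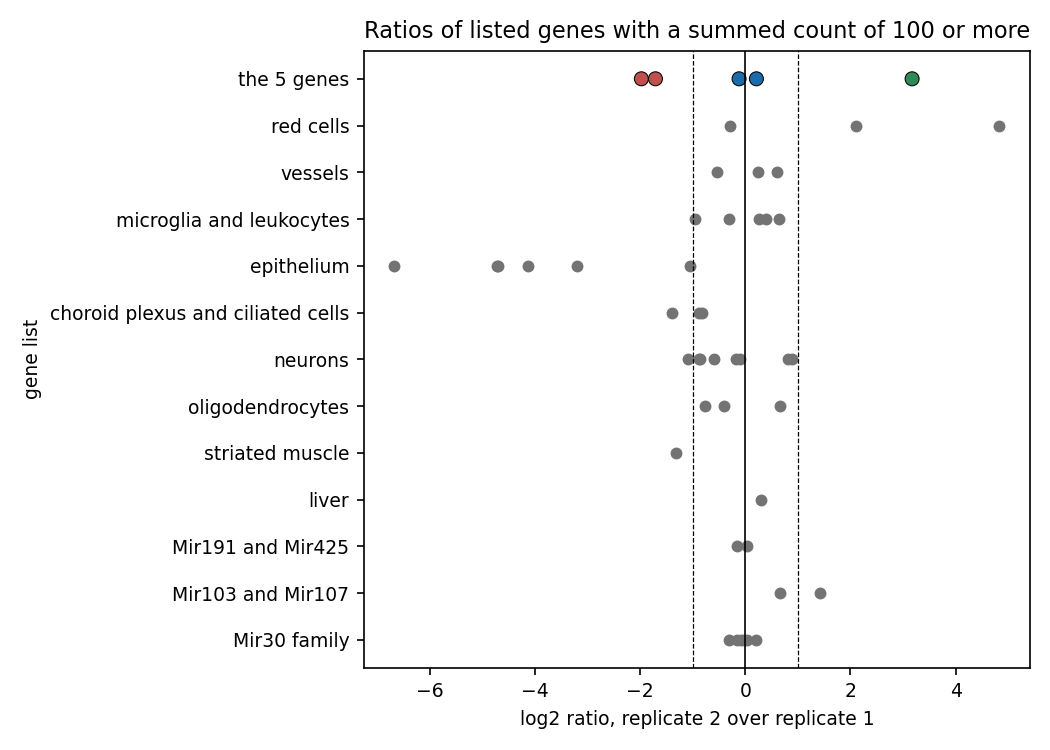
Log2 ratio of replicate 2 over replicate 1 for the 5 genes (coloured) and for the listed genes that reached 100 counts in sum (grey, a point per gene); dashed lines mark a 2-fold difference. Mir22 and Mir140 lie on the side of the epithelial and choroid plexus markers, of most neuronal and oligodendrocyte markers and of Mir206. Mir185 lies on the side of the red cell markers Mir451a and Mir144 but not of Mir486. Most vessel, microglia and leukocyte markers, Mir122, Mir107 and Mir103-2 also lie on the side of Mir185. Mir744 lies among the Mir30, Mir191 and Mir425 genes, and Mir652 just above them.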

How the data were processed

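As deposited, each library has a table of raw read counts over microRNA genes, neither pooled nor normalized. The deposited notes name the build mm10 and annotation M21. The aligner, counter, trimming and filters are not given in the sources used here. The 3 value columns have no names and were read as counts on either, the annotated and the opposite strand, from their sums. The column read as either strand summed to 3342547 and 2585311, less than the 3555469 and 2761003 of the annotated strand. A plain count over both strands would not be lower, so this reading is uncertain. Rows without a gene did not enter library sizes: unmapped reads were 19.3% and 25.6% of all reads, reads outside genes 4.50% and 5.63%.

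CPM used the annotated strand. Ratios used TMM factors of edgeR 4.0.16 over all genes, with 0.5 added to each count, and Clopper-Pearson intervals (scipy 1.17.1). The ratio was checked on simulated data with known changes. Those data held counting error alone, so the check covers the calculation and not differences between animals or libraries. No test between groups exists, since there is 1 group. Effects of CAST variants on mapping were not tested.

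Symbols, coordinates and hosts came from annotation M21, in which all 2202 gene IDs matched, and mature sequences from RefSeq. Named genes were the 5 genes, the 3 nearest to each by level pair, genes with a shared seed, the nearest gene with reads on each side, genes with a ratio as high as Mir185, and the listed markers. Named outside this rule, after their values were seen, were the genes with a ratio as low as Mir22. Members and lists were chosen with earlier results of these data known.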

Additional observations from a re-analysis of the deposited data

How the results depend on the processing

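All 5 log2 ratios kept their sign under RLE size factors, library size alone, TMM without the 10 most abundant genes, TMM on genes of at least 10 counts in sum, either strand and 2 added to each count. Mir744 ranged from -0.12 to -0.061, Mir652 from 0.21 to 0.27, Mir22 from -1.97 to -1.92, Mir140 from -1.71 to -1.65 and Mir185 from 3.17 to 3.23. Outside their counting intervals were Mir744 with library size alone (-0.10), Mir744 (-0.089) and Mir652 (0.24) without the 10 most abundant genes, and Mir744 (-0.061), Mir652 (0.27), Mir22 (-1.92) and Mir140 (-1.65) with TMM on genes of at least 10 counts.

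Levels depend on the denominator by construction. With the 10 most abundant genes left out of the denominator they were 45902 CPM for Mir744, 30151 for Mir652, 11847 for Mir22 and 5237 for Mir140. Mir744 is itself among those 10 genes, so its value is set against a sum that does not hold it and is not a share. Per 1000000 reads of all kinds, Mir744 had 7137, Mir652 4661, Mir22 1894 and Mir140 835. With counts on either strand Mir744 had 26097 CPM, from the same counts of Mir744 over a smaller sum. Leaving out a replicate leaves the other library's level, as given above, and moved the rank of Mir185 between 100 and 207. At the minimum summed count of 100, 34 genes passed 2-fold with replicate 1 higher and 15 with replicate 2 higher. With a minimum of 1000, 22 genes passed 2-fold with replicate 1 higher and 6 with replicate 2 higher. With a minimum of 20, these numbers were 51 and 37. The summed share stayed between 4.62% and 5.46%. In all, 59 of the alternative values kept within the replicate SD, the counting interval or a factor of 1.5, and 22 did not. The wide SDs of Mir22, Mir140 and Mir185 let even changes of over 3-fold in level count as kept. With 2 libraries, an SD rests on a single difference.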
